A study of Mustela putorius furo with 10 samples.

Results

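The genes described here are those of DNA replication and of mitosis, taken from a list of 60 symbols, 32 for replication and entry into S phase and 28 for mitosis. Each symbol was looked up through the RefSeq ferret gene name of the sequence that a probe was designed on. Of the 60 genes, 42 were found on the array by name, and 39 of these were measured, meaning that the ferret's RNA gave a signal well above background on at least 4 of the 10 arrays. They comprised 22 replication and 17 mitosis genes among 26303 genes measured in all. LIG1, CDK1 and AURKA were on the array but too dim, and 18 symbols were not matched by name, among them MKI67, TOP2A, MCM5, MCM6, CDT1, RRM1, E2F1, BUB1, NDC80 and CENPE. Of the 39 genes, 36 were above background on all 10 arrays, and the other 3, CCNB1, PLK4 and BUB1B, on 5 control and 4 cold arrays, so that no gene entered through 1 group alone.

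The samples were peripheral blood mononuclear cells (PBMC), the lymphocytes and monocytes that a Ficoll gradient separates from blood, of male ferrets aged 3 months. A control group of 6 ferrets was kept at 22 °C, and a cold group of 4 ferrets at 4 °C for 1 week. The methods mention individual housing beside the cold group, in words that may cover both groups, and PBMC could not be obtained from every animal of that group. The RNA of each ferret, labelled with the green dye Cy3, was hybridised to its own array together with a common pool of RNA from PBMC and other tissues, labelled with the red dye Cy5.

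Cells copy their DNA once per division. Origins are licensed in G1 phase when the ORC complex and CDC6 load the ring-shaped MCM helicase, and they fire in S phase when CDC45 and the GINS complex join it and cyclin E with CDK2 is active, while ribonucleotide reductase and thymidylate synthase supply the building blocks. Cyclin A, cyclin B, Polo-like and Aurora kinases then drive mitosis, the spindle checkpoint holds the chromosomes until all are attached, and SMC proteins shape and hold them together. Most cells in blood are at rest, and many such transcripts are most abundant in dividing cells, such as activated lymphocytes and precursors. Which cells they came from here was not measured. In RNA from mixed cells, fewer cells of a type and less RNA per cell cannot be told apart.

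Each gene was measured in 2 ways. The log2 ratio compares the ferret's Cy3 signal with the Cy5 signal of the pool on the same array, normalised within the array by loess, which sets its 0 on each array, so that its sign is relative to the other spots. The log2 Cy3 intensity, called Cy3 alone, leaves the pool out and is normalised between arrays by quantiles. A log2 change is the mean of the 4 cold arrays minus the mean of the 6 control arrays, tested with limma, and a gene is said to pass at an unadjusted p under 0.01, the threshold of the study's methods. Intensities of different genes are not comparable, since probes differ in brightness. The 10 arrays lay on 10 slides scanned on 1 day, and the share of spots well above background was 50.4 to 63.5% for Cy3 and 27.0 to 64.0% for Cy5. By this share the pool was the weaker channel on all arrays but cold replicate 1. Over the probes of the 39 genes, Cy3 was well above background on 92.7% of the spots in control and 97.9% in cold, but Cy5 on only 56.8% in control and 81.4% in cold. For the mitosis genes the Cy5 share was 41.5% in control and 73.4% in cold, and for the replication genes 68.6% and 87.6%. How this difference in the reference channel bears on the ratios was not tested.

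In control ferrets, the mean log2 ratio of the 39 genes was lowest for POLA1, the catalytic subunit of the polymerase that starts each DNA strand, at -0.55 ± 0.15 (SD, n = 6), and highest for CDC25B, a phosphatase that switches on the mitotic kinase CDK1, at 0.93 ± 0.15 (SD, n = 6).

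Cold exposure was accompanied by a difference in few of these genes. In the ratio, 4 of the 39 passed, which is 10.3% against 8.64% of all genes. RRM2, CCNE1 and SMC1B were higher and SMC4 was lower in cold, where 5.21% of all genes passed as higher and 3.43% as lower. At an unadjusted p under 0.05 were 8 genes, or 20.5% against 24.7% of all genes, with 4 higher and 4 lower where 12.2% and 12.5% of all genes were. The cold and control arrays did not overlap for RRM2 and SMC1B alone, 5.13% of the genes against 5.22% of all genes. Those without overlap and higher in cold made up 3.07% of all genes. No gene of the array passed after Benjamini-Hochberg adjustment over all genes at 0.05 in the ratio, by limma or by the methods' t-test, though 1272 genes did when cold replicate 2 was dropped, 633 when control replicate 5 was and 12 when cold replicate 1 was. These shares of calls are near those of the array as a whole. The median log2 change of the 39 genes was 0.01, with 21 higher and 18 lower, and that of all genes was -0.01, with 48% of them higher.

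In Cy3 alone, 3 genes passed, which is 7.69% against 9.84% of all genes. They were RRM2, SMC1B and BUB1B, and all 3 were higher in cold, as were 5.48% of all genes. RRM2 and SMC1B also passed after adjustment over all genes at 0.05, as did 2.82% of all genes, and again only they had no overlap between the groups, where 7.03% of all genes had none and 3.57% had none and were higher. At an unadjusted p under 0.05 were 9 of the 39 genes, or 23.1% against 24.8% of all genes, with 8 higher and 1 lower where 12% and 12.8% of all genes were. The median log2 change in Cy3 alone was 0.20, with 26 genes higher and 13 lower, while the median of all genes was -0.04 and 42.9% of them were higher.

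**Figure D1:**
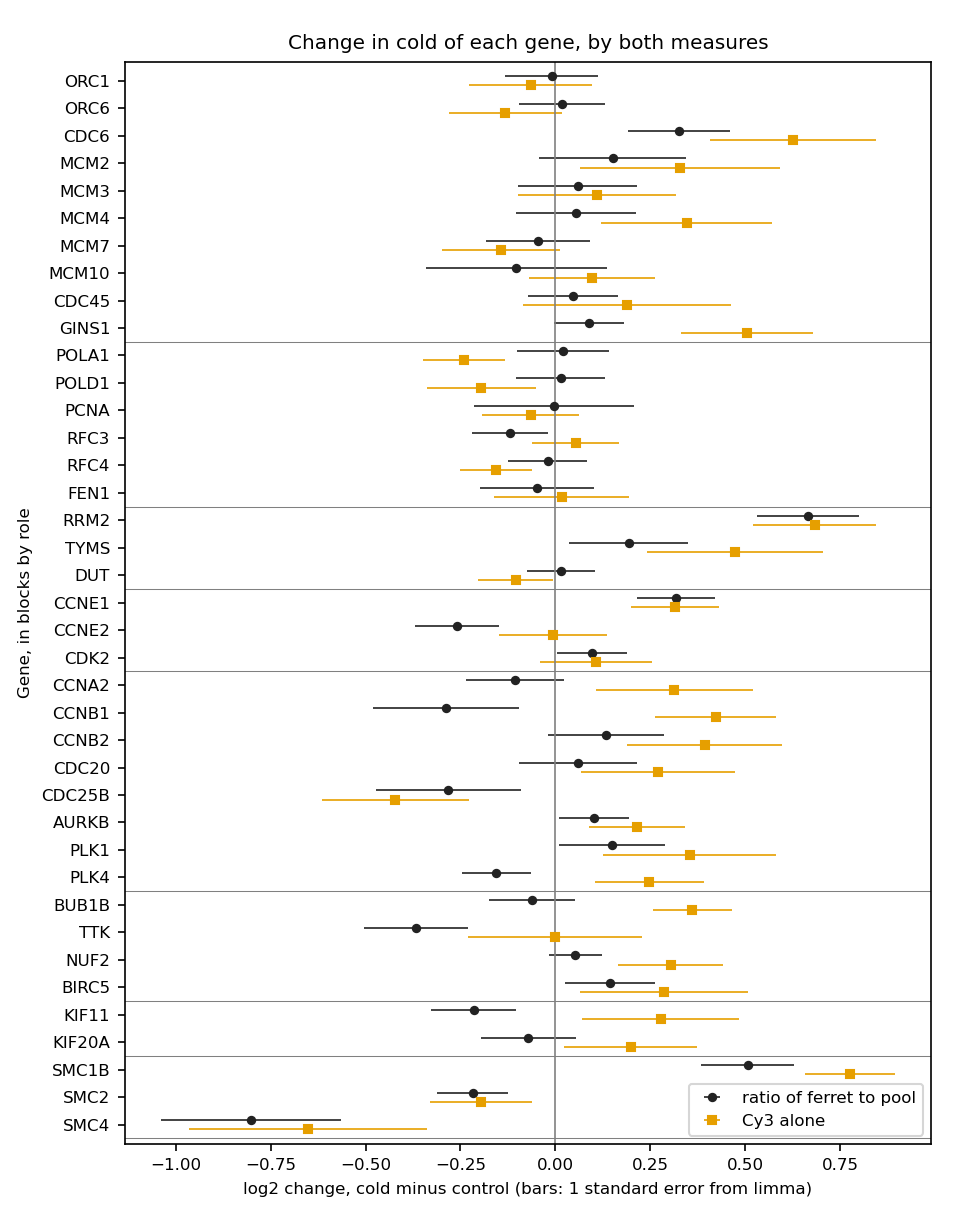
Log2 change in cold of each of the 39 genes, with the ratio as black circles and Cy3 alone as orange squares, and bars of 1 standard error from limma; lines separate the roles. RRM2 and SMC1B lie above 0 in both measures and SMC4 below 0 in both, and CCNA2, CCNB1, PLK4 and BUB1B lie above 0 in Cy3 alone but below 0 in the ratio.

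Replication and mitosis genes differed little in the loess ratio and more in Cy3 alone. The 22 replication genes had a median log2 change of 0.02 in the ratio, with 14 higher and 8 lower, and of 0.08 in Cy3 alone, with 13 higher and 9 lower. The 17 mitosis genes had a median of -0.07 in the ratio, with 7 higher and 10 lower, and of 0.28 in Cy3 alone, with 13 higher and 4 lower. Of all 39 genes, 17 were higher in both measures, 9 lower in both, 9 lower in the ratio but higher in Cy3 alone, and 4 the reverse. Of the 9, 6 were mitosis genes, and all 4 of the reverse kind were replication genes. The log2 change in Cy3 alone exceeded that in the ratio by a median of 0.26 for the mitosis genes and 0.03 for the replication genes. Under other scalings the ratio medians were further apart, at -0.47 for replication and -0.03 for mitosis genes with median centring and at -0.05 and 0.33 in the deposited table, where the mitosis median turned to higher in cold. These medians are descriptions of the genes chosen, and the difference between the classes was not tested.

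Among the origin licensing and firing genes, 10 were measured and none passed in either measure. Their median log2 change was 0.05 in the ratio and 0.15 in Cy3 alone, and 7 were higher and 3 lower in each measure. CDC6, which with ORC loads the MCM helicase, had log2 ratios of 0.61, 0.51, 0.15 and 0.66 on cold replicates 1 to 4 and from -0.01 through a median of 0.09 to 0.58 in control. Its change was 0.33 in the ratio and 0.63 in Cy3 alone (exact permutation tests, two-sided p = 0.0619 and 0.0476). Control replicate 5 and cold replicate 3 lay among the values of the other group. Cy5 was above background on 18.5% of the CDC6 spots in control and 63.9% in cold.

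MCM2, a subunit of the helicase, had log2 ratios of -0.05, 0.31, -0.76 and 0.04 on cold replicates 1 to 4, against -0.65 to -0.07 with a median of -0.17 in control. The cold values thus reached both above and below all control values, and the change of 0.15 was smaller than its standard error of 0.19. MCM3, MCM4 and MCM7, of the same ring, had changes of 0.06, 0.06 and -0.04 in the ratio and of 0.11, 0.35 and -0.14 in Cy3 alone. For all 4 MCM genes of the ring, cold replicate 2 was the highest and cold replicate 3 the lowest of all 10 arrays in the ratio, apart from MCM3, where control replicate 6 was lower still. GINS1, of the GINS complex, had a change of 0.09 in the ratio and 0.50 in Cy3 alone (exact permutation p = 0.0286), with Cy5 above background on 23.3% of its spots in control and 67.5% in cold. In the deposited table GINS1 was higher by 0.66 and passed. For CDC45, which joins GINS at the helicase, the changes were 0.05 and 0.19. ORC1 and ORC6, which mark origins, had changes of -0.01 and 0.02 in the ratio and of -0.07 and -0.13 in Cy3 alone. MCM10, which helps to activate the helicase, rests on a single probe and had changes of -0.10 and 0.10.

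The 6 genes of the replication fork did not pass in either measure, with a median of -0.01 in the ratio and -0.11 in Cy3 alone. PCNA, the sliding clamp that holds the polymerases on DNA, was the least even of them. Its log2 ratio lay between -0.65 and -0.46 in control, with a median of -0.51, but was -0.54, 0.19, -0.51 and -1.27 on cold replicates 1 to 4. Control arrays averaged -0.53 ± 0.08 (SD, n = 6) and cold arrays -0.53 ± 0.59 (SD, n = 4), so that the means were alike while cold replicates 2 and 4 stood on opposite sides of every control array. Without cold replicate 4 its change was 0.24, while with all arrays it was -0.91 with median centring, where the median of all genes was -0.43, and -0.41 in the deposited table. In Cy3 alone, PCNA was 11.60, 11.85, 11.72 and 11.24 on the cold arrays and 11.50 to 11.86 in control. POLA1 had a change of 0.02 in the ratio and -0.24 in Cy3 alone (exact permutation p = 0.0286), and POLD1, the catalytic subunit of polymerase delta, of 0.01 and -0.19. RFC3 and RFC4, of the complex that loads PCNA, had ratio changes of -0.12 and -0.02, and FEN1, which trims the ends of the short strand pieces, of -0.05.

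Of the 3 genes of nucleotide supply, RRM2 was the only one to pass. RRM2 encodes the small subunit of ribonucleotide reductase, which makes deoxyribonucleotides and is made mostly in S phase. Its log2 ratio was 0.92, 0.94, 1.02 and 0.64 on cold replicates 1 to 4 and ran from -0.09 through a median of 0.14 to 0.53 in control. All 4 cold arrays lay above all 6 control arrays, the closest being cold replicate 4 and control replicates 5 and 6. RRM2 averaged 0.22 ± 0.25 (SD, n = 6) on the control arrays and 0.88 ± 0.16 (SD, n = 4) on the cold ones. The difference of 0.67 had a standard error of 0.14 (limma p = 0.000453; exact permutation test, two-sided p = 0.00952) and, adjusted over all genes, did not pass (limma adjusted p = 0.0659). With 4 against 6 arrays there are 210 ways to split them, and the smallest p that this exact test can give is 0.00476. All 12 probes of RRM2, from 3 sequences, were higher in cold in both measures, and Cy5 was above background on 97.2% of their spots in control and on all in cold.

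Cy3 alone gave RRM2 a log2 intensity of 12.44, 12.50, 12.48 and 12.21 on the cold arrays and of 11.34 to 12.18 in control, with a median of 11.61. That change was 0.68, with a standard error of 0.16, and passed after adjustment over all genes (limma adjusted p = 0.0494; exact permutation p = 0.00952). The adjusted call held without control replicate 5 or 6 and was lost when any other array was left out, with changes of 0.61 to 0.75 there. It was also lost with the position on the slide as a block, at 0.67 (limma adjusted p = 0.0705). The ratio depended on scaling. With each array centred on its median in place of loess, the change of RRM2 was -0.13 where the median of all genes was -0.43. In the authors' deposited table it was 0.33 (limma p = 0.213; limma adjusted p = 0.362). RRM2 passed in neither. TYMS, thymidylate synthase, had a change of 0.19 in the ratio and 0.47 in Cy3 alone (exact permutation p = 0.119), with cold replicate 2 highest and cold replicate 3 at 10.43, below the control median of 10.54. For DUT, which keeps uracil out of DNA, the changes were 0.02 and -0.10.

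Entry into S phase was represented by both E cyclins and their kinase CDK2. CCNE1 had log2 ratios of 0.58, 0.38, 0.52 and 0.69 on the cold arrays and of 0.03 to 0.52 in control, with a median of 0.20. Only control replicate 5 reached into the cold values. The change was 0.32, with a standard error of 0.10 (limma p = 0.00983; exact permutation test, two-sided p = 0.0190), just inside the threshold, and with 3 of its 8 probes kept and Cy5 above background on 19.4% of their spots in control. CCNE1 no longer passed when any 1 array other than control replicate 5 or cold replicate 2 was left out, with changes of 0.27 to 0.33. Its ratio also moved with the processing, to 0.11 with processed signals, 0.16 with no filter on dim probes and 0.68 in the deposited table, and passed in none of these. Cy3 alone gave 0.31 (exact permutation p = 0.0286). CCNE2 went the other way in the ratio, with a change of -0.26, in the same direction in all 16 probes, from -0.04 ± 0.09 (SD, n = 6) down to -0.30 ± 0.25 (SD, n = 4; exact permutation p = 0.0476). Its cold values were -0.54, 0.02, -0.45 and -0.23, so that cold replicate 2 stayed among the control arrays. Cy5 was above background on 15.1% of its spots in control and 53.9% in cold, and in Cy3 alone its change was -0.01. CDK2 had a change of 0.10 in the ratio and 0.11 in Cy3 alone.

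**Figure D2:**
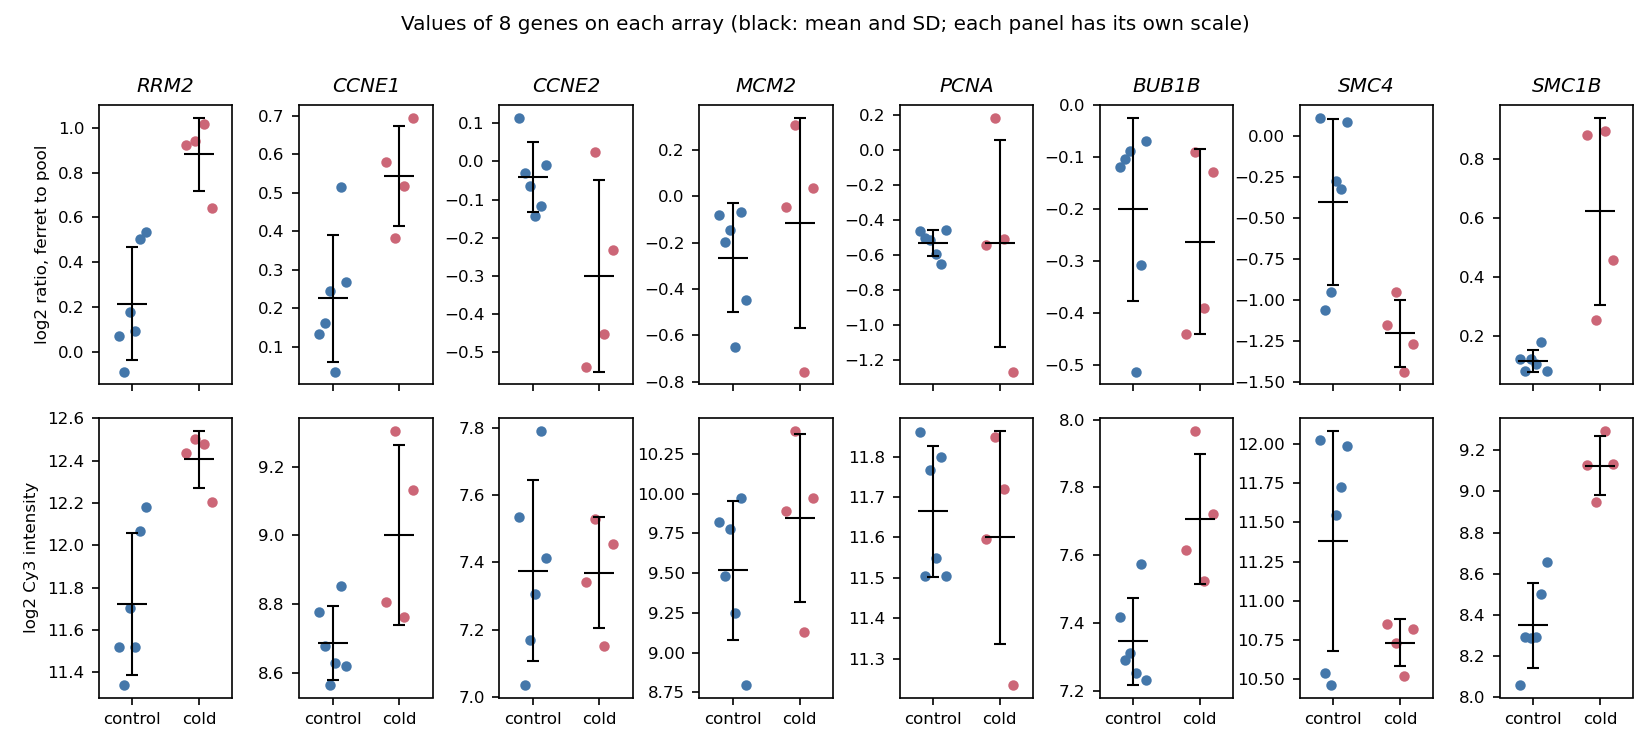
Values of 8 genes on every array, as log2 ratio of ferret to pool in the upper row and log2 Cy3 intensity in the lower row; points are arrays (6 control in blue, 4 cold in red), black marks are mean and SD, and each panel has its own scale. RRM2 and SMC1B do not overlap between the groups in either row. PCNA spreads on both sides of the control values in cold in the ratio. Control replicates 2 and 3 share the low range of the cold arrays for SMC4.

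No mitotic cyclin, kinase or phosphatase passed among the 8 measured. Their median log2 change was -0.02 in the ratio, with 4 higher and 4 lower, and 0.29 in Cy3 alone, with 7 higher and 1 lower. CCNB1, the cyclin that starts mitosis with CDK1, showed the widest gap between the measures. Its log2 ratio was -1.04, -0.09, -0.86 and -0.48 on the cold arrays against -0.70 to -0.09 in control, a change of -0.29 (exact permutation p = 0.238). Its log2 Cy3 intensity was 7.63, 8.34, 7.39 and 7.84 on the same arrays against 7.23 to 7.61 in control, a change of 0.42 (exact permutation p = 0.0238). Cy3 was above background on 65.3% of its spots in control and 93.75% in cold. All 4 probes were lower by the ratio and all 4 higher by Cy3 alone. Cy5 was above background on 36.1% of their spots in control and 77.1% in cold. CCNA2 and PLK4, which controls centriole duplication, had the same pattern, with changes of -0.11 and -0.16 in the ratio and 0.31 and 0.25 in Cy3 alone. CCNB2, CDC20, AURKB and PLK1 were higher in both measures, by 0.13, 0.06, 0.10 and 0.15 in the ratio and 0.39, 0.27, 0.22 and 0.35 in Cy3 alone, none beyond the spread between arrays. CDC25B had a change of -0.28 in the ratio and -0.42 in Cy3 alone (exact permutation p = 0.0429). Its ratio was 0.68, 1.09 and 0.88 on cold replicates 1, 2 and 4, within or close to the control range of 0.77 to 1.13, and -0.07 on cold replicate 3.

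BUB1B, the checkpoint kinase-like protein that restrains CDC20 until the chromosomes are attached, was the only one of the 4 kinetochore and checkpoint genes to pass, in Cy3 alone. Its log2 Cy3 intensity was 7.61, 7.97, 7.52 and 7.72 on the cold arrays and 7.23 to 7.57 in control, with a median of 7.30. Control replicate 5 lay above cold replicate 3, and otherwise the groups were apart. Its probes had Cy3 above background on 76.4% of spots in control and on 100% in cold. The change was 0.36, with a standard error of 0.10 (limma p = 0.00525; limma adjusted p = 0.0782; exact permutation test, two-sided p = 0.0143). It no longer passed without control replicate 2, 3, 4 or 6 or without cold replicate 2 or 4, with changes of 0.27 to 0.36. Nor did it pass when scaled to the 75th percentile, at 0.23, or with the replicate number as a block, at 0.39. By the ratio, BUB1B had a change of -0.06 (exact permutation p = 0.610), with cold values of -0.44, -0.09, -0.39 and -0.13 inside the control range of -0.51 to -0.07. TTK, the kinase at the head of the same checkpoint, was lower by the ratio in all 16 probes. Its change was -0.37 in the ratio (exact permutation p = 0.0476) and 0.00 in Cy3 alone. Cy5 was above background on 35.8% of the TTK spots in control and 81.8% in cold. NUF2, which ties kinetochores to microtubules, and BIRC5, of the Aurora B complex, had changes of 0.05 and 0.14 in the ratio and 0.30 and 0.29 in Cy3 alone. For NUF2, Cy3 was above background on 63.2% of spots in control and 95.8% in cold. The spindle motors KIF11 and KIF20A had changes of -0.22 and -0.07 in the ratio but 0.28 and 0.20 in Cy3 alone.

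The 3 SMC genes did not move together. SMC1B encodes a cohesin subunit of meiosis rather than of the mitotic cohesin ring, although it stands in the mitosis list, and it is a gene that the study itself picked on these arrays, so that its difference is not independent evidence. Its log2 ratio was 0.88, 0.26, 0.89 and 0.46 on cold replicates 1 to 4 and 0.08 to 0.18 in control, with a median of 0.11. Every cold array was above every control array, cold replicates 1 and 3 by far. Averages were 0.12 ± 0.04 (SD, n = 6) for the control and 0.62 ± 0.32 (SD, n = 4) for the cold arrays. They differed by 0.51, with a standard error of 0.12 (limma p = 0.00166; limma adjusted p = 0.0736; exact permutation test, two-sided p = 0.00476, the smallest possible). In Cy3 alone the cold arrays were more alike, at 9.13, 8.95, 9.29 and 9.13 against 8.06 to 8.66 in control, a change of 0.78, with a standard error of 0.12 (limma adjusted p = 0.0342; exact permutation p = 0.00476). The adjusted call was lost without control replicate 1, 2 or 4 or cold replicate 3 or 4, with changes of 0.72 to 0.77. All 5 probes kept of 8 were higher in both measures, and Cy5 was above background on 21.7% of their spots in control and 57.5% in cold.

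SMC4, a core subunit of condensin, which compacts mitotic chromosomes, had log2 ratios of -1.16, -0.95, -1.44 and -1.27 on the cold arrays. The control arrays were split, with -1.06 and -0.96 on replicates 2 and 3 and -0.33 to 0.11 on the other 4. The change was -0.80, with a standard error of 0.24 (limma p = 0.00603; limma adjusted p = 0.100; exact permutation test, two-sided p = 0.0190), the lowest of the 39 genes, and all 4 probes were lower, with Cy5 above background on all their spots. SMC4 passed without control replicate 2 or 3 or cold replicate 2, but not when any other array was left out, with changes of -0.82 to -0.70 there. It was -1.70 with median centring and -1.22 in the deposited table, and passed in both. In Cy3 alone, the change was -0.65 (exact permutation p = 0.143) and the same 2 control arrays were at 10.54 and 10.46, near the cold values of 10.52 to 10.85. SMC2, the partner of SMC4 in condensin, had a change of -0.22 in the ratio (exact permutation p = 0.0333) and -0.20 in Cy3 alone. Cy5 was above background on 15.3% of the SMC2 spots in control and 52.1% in cold.

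**Figure D3:**
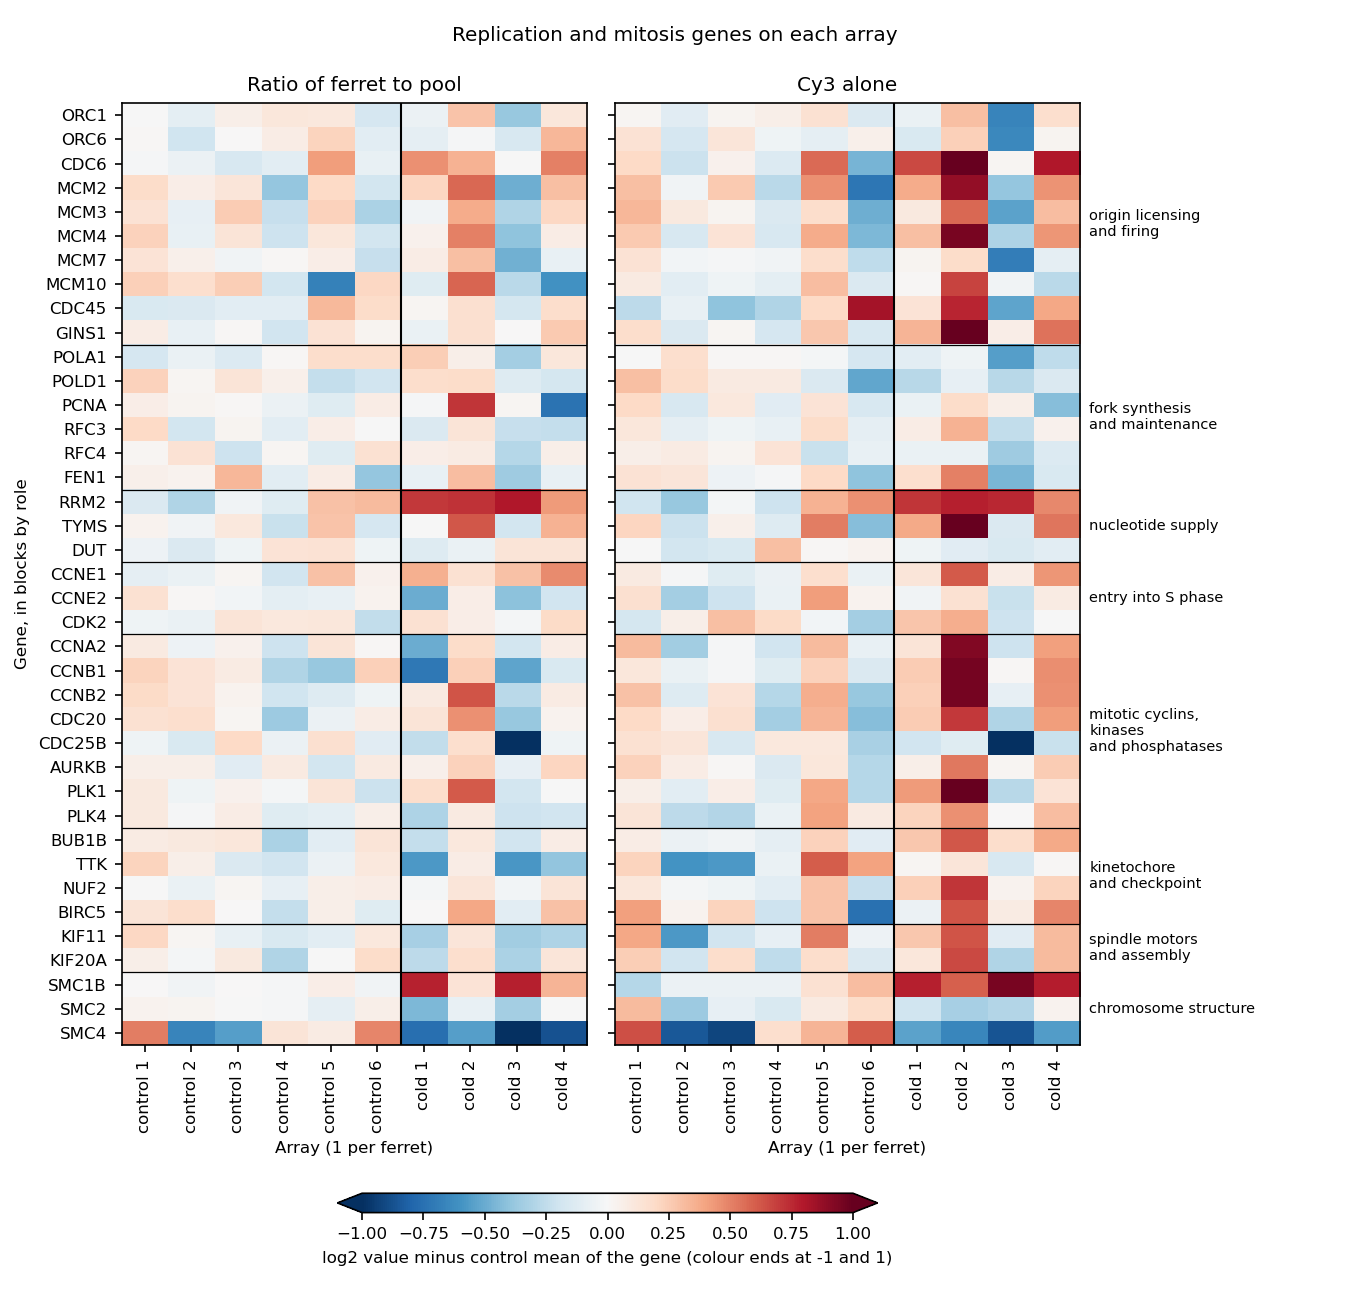
Each of the 39 genes (rows, in blocks by role) on each of the 10 arrays (columns), as the log2 value minus the mean of the control arrays, for the ratio on the left and Cy3 alone on the right; red is above and blue below the control mean. Cold replicate 2 is mostly red and cold replicate 3 mostly blue in both measures, while RRM2 and SMC1B are red on all 4 cold arrays.

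The cold ferrets differed from each other in most of these genes. The counts that follow were not made over all genes, so whether they are particular to these genes was not tested. The SD between cold arrays was larger than that between control arrays for 34 of the 39 genes in the ratio and for 28 in Cy3 alone, with medians of 0.25 in cold and 0.15 in control for the ratio and of 0.33 and 0.23 for Cy3 alone. Cold replicate 2 was the highest cold array for 27 genes in the ratio and 35 in Cy3 alone, and cold replicate 3 was the lowest for 24 and 33. On cold replicate 2 the median gene stood 0.17 above its control mean in the ratio and 0.60 in Cy3 alone, and on cold replicate 3 it stood at -0.23 and -0.21. Cold replicates 1 and 4 were at -0.02 and 0.07 in the ratio and at 0.12 and 0.25 in Cy3 alone. The control arrays ranged from -0.11 to 0.08 in the ratio and from -0.15 to 0.23 in Cy3 alone, so that the groups overlapped in both measures. This order of the cold arrays was shared by both classes: in Cy3 alone, replicate 2 was the highest cold array for 21 of 22 replication and 14 of 17 mitosis genes, and replicate 3 the lowest for 19 and 14.

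Counts of genes passing moved with these 2 ferrets. Without cold replicate 2, 7 genes passed in the ratio, with CCNE2, KIF11 and TTK lower in cold besides the 4 named, where 12.9% of all genes passed, and RRM2, SMC1B and TTK also passed after adjustment over all genes. Without cold replicate 3, 8 genes passed in Cy3 alone, namely BUB1B, CCNB1, CCNE1, CDC6, GINS1, RRM2, SMC1B and TYMS, all higher in cold, where 6.12% of all genes passed, and none of the 8 passed after adjustment. RRM2 and SMC1B passed in both measures whichever array was left out. In Cy3 alone, the mitosis genes had a median log2 change of 0.12 when cold replicate 2 was left out and of 0.39 when cold replicate 3 was.

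**Figure D4:**
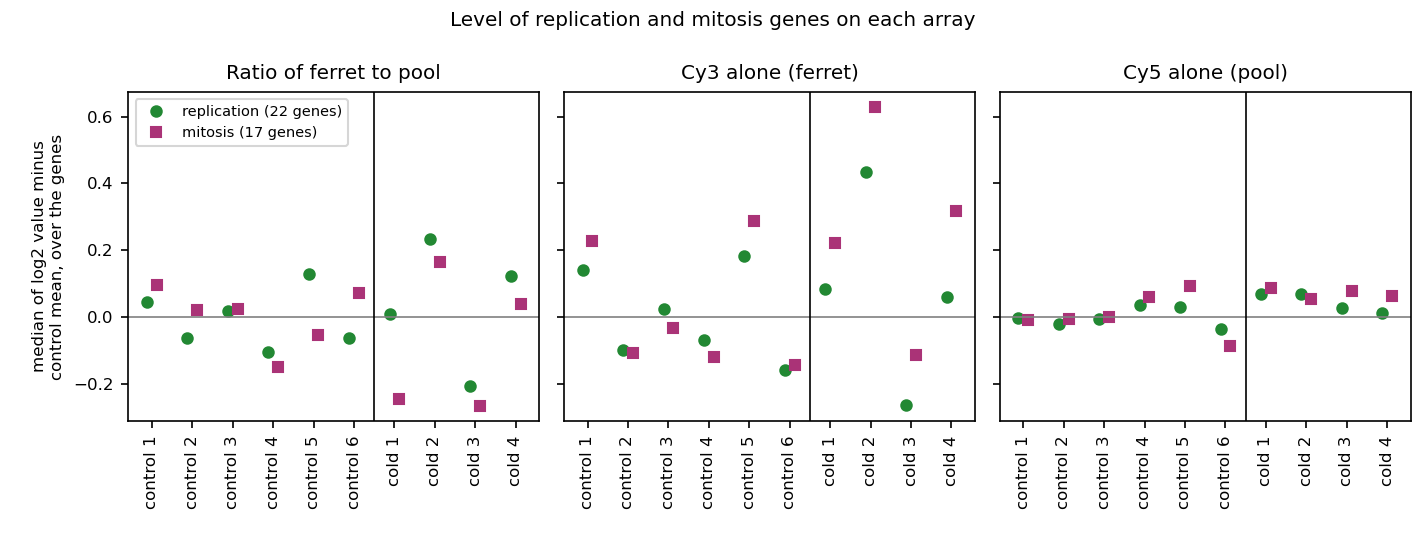
Median over the 22 replication genes (circles) and the 17 mitosis genes (squares) of the log2 value minus the control mean, on each array, for the ratio, for Cy3 alone and for Cy5 alone, the reference pool. In Cy3 alone the mitosis genes of cold replicates 2 and 4 stand at 0.63 and 0.32, above the control range of -0.14 to 0.29. Those of cold replicate 3 stand at -0.11, near its lower end.

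The reference pool was the same RNA on every array, so its own signal should not differ by group. In Cy5 alone, normalised between arrays like Cy3, 1 of the 39 genes passed, CDC45, with a change of 0.18 (limma p = 0.00440; exact permutation p = 0.00476), which is 2.56% against 1.79% of all genes. The median log2 change was 0.06, with 29 genes higher and 10 lower, while that of all genes was 0.03 with 62% higher. For the mitosis genes the median was 0.07, with 14 higher and 3 lower. On the 4 cold arrays the median mitosis gene stood 0.05 to 0.09 above its control mean in Cy5, within the control range of -0.09 to 0.09.

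Sorted by how well the pool was measured, 12 of the 39 genes had Cy5 above background on fewer than 5 arrays. Their median log2 change was 0.05 in the ratio and 0.31 in Cy3 alone, while the 7983 genes of the array with so weak a pool signal had medians of 0.03 and -0.02. For the 10 genes with Cy5 above background on all arrays, 3 of them mitosis genes, the medians were -0.01 and -0.07, and the 7226 such genes of the array had -0.04 and -0.07. The 17 genes in between had medians of 0.02 and 0.20, against -0.03 and -0.04 for 11094 genes of the array. The upward median of Cy3 alone thus lay in the genes whose pool signal was below this level on some arrays.

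**Figure D5:**
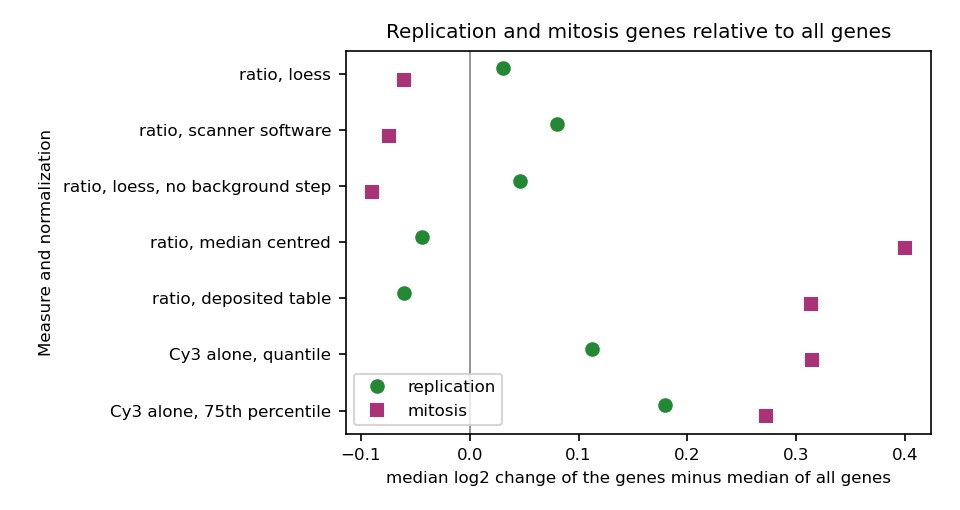
Median log2 change of the replication genes (circles) and mitosis genes (squares) minus the median of all genes, for the ratio under 5 normalisations and Cy3 alone under 2. The mitosis genes lie between -0.09 and -0.06 with loess and with the signals of the scanner software, and between 0.27 and 0.40 otherwise, whereas the replication genes stay between -0.06 and 0.18.

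The direction of the mitosis genes relative to all genes turned on the normalisation. Relative to the median of all genes, they were at -0.06 in the loess ratio, -0.09 without background subtraction and -0.07 with the signals processed by the scanner software. With arrays centred on their median they were at 0.40, in the authors' deposited table at 0.31, and in Cy3 alone at 0.31, or 0.27 when scaled to the 75th percentile. Replication genes were at 0.03, 0.05 and 0.08 in the first 3 settings and at -0.04 with median centring. They were at -0.06 in the deposited table, and at 0.11 and 0.18 in Cy3 alone. They lay closer to the median of all genes than the mitosis genes did, except with the processed signals.

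Further genes of the same processes, from lists that do not overlap with the 60, gave like values. Of 38 other replication genes, among them RPA, primase and the remaining ORC and RFC subunits, 26 were measured, with a median log2 change of 0.00 in both measures, 13 higher and 13 lower, and none passed. Of 50 other mitosis genes, 29 were measured, with a median of -0.03 in the ratio, 12 higher and 17 lower, and of 0.26 in Cy3 alone, 25 higher and 4 lower. None passed in the ratio. In Cy3 alone, ANLN, an actin-binding protein of the cleavage furrow, came under the threshold, but its Cy3 was above background on only 18.8% of its spots in control and on 87.5% in cold, so that the filter on dim probes kept it largely through the cold arrays and it is not counted as a call. ANLN stays in the median and the counts of direction, which were not taken without such dim genes. For ZWINT, Cy3 was above background on 34.5% of spots in control and 62.5% in cold. For CENPK these shares were 50% and 76.4%, and for KIF18A the reverse, 68.75% and 56.25%. Of all genes, 8.64% passed in the ratio and 9.84% in Cy3 alone. Of 18 further cohesin and condensin genes, 11 were measured, and 9 were lower and 2 higher in cold in each measure, with medians of -0.12 and -0.09 and none passing.

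A further list held regulators upstream of S phase and mitosis. Of 32 G1 cyclins, inhibitors and quiescence genes, 24 were measured, and 3 passed in the ratio, or 12.5% against the 8.64% of all genes. PKMYT1, a kinase that holds CDK1 inactive before mitosis, had log2 ratios of 0.16, 0.13, -0.09 and 0.20 on the cold arrays and -0.74 to -0.23 in control, a change of 0.62 (limma adjusted p = 0.0576; exact permutation p = 0.00476) and of 0.42 in Cy3 alone, but its Cy5 signal was itself lower in cold, by a change of -0.31. For E2F3, a transcription factor that switches on S phase genes, the cold values were 0.67, 0.59, 1.01 and 0.52 against 0.10 to 0.36, a change of 0.48 (exact permutation p = 0.00476). CDKN1B, the p27 inhibitor of cyclin E with CDK2, was lower, at -0.29, -0.68, -0.59 and -0.62 against -0.28 to 0.19, a change of -0.52 (exact permutation p = 0.00476). In none of the 3 did the groups overlap, against 5.22% of all genes, although cold replicate 1 came within 0.01 of control replicate 3 for CDKN1B. With median centring, the changes of PKMYT1 and E2F3 were 0.04 and 0.06 and that of CDKN1B -1.43, where the median of all genes was -0.43. In Cy3 alone CDKN1B had a change of -0.43, with overlapping groups, and did not pass, while E2F3, PKMYT1 and RBL2 did, where 9.84% of all genes passed. E2F7, a repressor of the E2F family, also came under the threshold, but it was kept by the filter on dim probes through the cold arrays, with Cy3 above background on 8.33% of its spots in control and on all in cold, and is not counted. RBL2, a pocket protein of resting cells, had a change of -0.36. The list as a whole had 10 genes higher and 14 lower in the ratio. Some genes that did not pass in the ratio changed in the same direction in every probe. All 8 probes of CDKN1A, at 0.66 to 1.01, and all 4 of CDKN2D, at 0.36 to 0.47, were higher. Those of CCND1, CCND2, CDK4 and CDK6 were all lower.

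Markers of several blood cell types moved with the same groups, and their counts stand against the 8.64% of all genes that passed in the ratio and the 9.84% in Cy3 alone. All 8 T cell markers, 4 of 6 B cell and 5 of 6 monocyte markers were measured, as the label PBMC implies, but so were 6 of 8 neutrophil markers, 2 of 6 of granulocyte precursors, 4 of 6 of platelets and 6 of 9 of red cells. The granulocyte precursor genes measured, MPO and CEBPE, had a mean log2 ratio of 0.80 to 1.93 on the cold arrays and -0.22 to 0.36 in control, and both passed. The neutrophil markers were at 1.71 to 2.01 in cold and 0.71 to 1.42 in control, with all 6 higher and 2 passing. The red cell markers were at -0.58 to 0.02 in cold and 0.17 to 0.75 in control, with 5 of 6 lower, and 2 passed, HBM as lower and GATA1 as higher. The 4 plasma cell markers measured were all higher in cold in both measures, with a median log2 change of 0.45 in the ratio, where MZB1 passed, but their mean overlapped between the groups, at 1.06 to 1.45 in cold and 0.33 to 1.37 in control. Monocyte markers, with a mean log2 ratio of 0.49 to 1.22 in cold against 0.06 to 0.62, had 4 of 5 higher in the ratio and all 5 in Cy3 alone, with 2 and 3 passing. All 4 platelet markers were higher, at 0.94 to 2.24 against -0.02 to 1.55, and 2 passed in the ratio, while all 4 B cell markers were lower, at 0.37 to 0.91 against -0.16 to 1.42, and none passed. The 2 markers of NK and cytotoxic cells were higher in the ratio and lower in Cy3 alone, and did not pass. T cell markers overlapped between the groups, with 7 of 8 lower in the ratio and a median log2 change of -0.36, and all 8 lower in Cy3 alone, where 5 passed. The part of these cells in the levels of RRM2, SMC1B and the other replication and mitosis genes was not tested.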

How the data were processed

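PBMC RNA of 6 control and 4 cold ferrets was compared on 10 custom 2-colour Agilent arrays, with 4 probes per target sequence. Deposited by the authors were the intensity of every spot in both channels (median brightness and local background) with its flags, from Feature Extraction 10.7.3.1 per the file headers, and a table of log2 values per sequence. That table follows log2 Cy3 minus log2 Cy5 within a sequence, has no stated centring or scaling, and is an alternative here. Background was corrected with normexp (offset 50), ratios were normalised within arrays by loess, and Cy3 alone and Cy5 alone between arrays by quantiles, in limma 3.58.1 under R 4.3.3. Control spots and outlier flags were left out. Spots were averaged to probes and probes to genes. The filter kept 111051 probes, those in which a share of 0.5 or more of the spots cleared background in Cy3 on 4 or more arrays. Names came from RefSeq's gene table (assembly ASM1176430v1.1), which named 21104 of 45328 sequences. No coordinates are given, since probes were not placed on that assembly, and no sequence table was used.

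Cold was compared with control by limma's lmFit and eBayes over all 26303 genes, with Benjamini-Hochberg adjustment, and for single genes also by an exact permutation test. The number of arrays limits the precision of every value. The genes and gene lists were chosen with earlier results of these data known. Values per array are given for genes with an unadjusted p under 0.01, for MCM2, PCNA and SMC1B, for the highest and lowest gene of each class in the ratio, and for some genes chosen after their values were seen. On simulated data over 26303 genes, 100 were shifted by 1 on the log2 scale and 100 others by 2. Noise was independent between genes. Of those shifted by 1, limma recovered 88% in the ratio and 77% in Cy3 alone at an adjusted p of 0.05. No measured replication or mitosis gene of the list changed by as much as 1, so these shares do not give the recovery of such smaller changes.

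The alternatives were the scanner software's processed signals, no background subtraction, median centring, the deposited table, no filter or a stricter one on dim probes, the median over probes, array weights, the methods' t-test, the replicate number or the slide position as a block, 75th percentile scaling of Cy3, and leaving out each array. A filter on Cy5 was added after seeing the data.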

Additional observations from a re-analysis of the deposited data

Results flagged for a closer look

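Single arrays stood apart from the rest of their group in 4 of 156 groups of values examined. The rule used is meant to flag about 1 in 20 groups by chance, a rate that was not measured here. CDC6 had a log2 ratio of 0.58 on control replicate 5, against -0.01 to 0.15 on the other control arrays. RFC4 was at -0.42 in the ratio on cold replicate 3, against -0.07 to -0.05 on the other cold arrays. KIF11 was at 0.052 in the ratio on cold replicate 2, against -0.41 to -0.37 on the others, and its change was -0.33 without that array. For CDC25B, the log2 Cy3 intensity was 12.22 on cold replicate 3, against 13.15 to 13.26 on the others. The 3 cold values lie on cold replicates 2 and 3, the arrays at the ends of the cold group for most of the genes described here.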

How the results depend on the processing

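Median log2 changes of the genes stayed within 1 SD of the arrays except as follows. With arrays centred on their median, which moved the median of all genes to -0.43, the ratio median was -0.20 for all 39 genes and -0.47 for the replication genes. In the deposited table it was 0.18 for all 39 genes and 0.33 for the mitosis genes. With probes also required to have Cy5 well above background on all 10 arrays, which left 5 mitosis genes, their median was 0.15. The 4 genes that passed in the ratio became 2 with processed signals, with median centring, with the Cy5 filter (of 21 genes) and with the methods' t-test, where 5.72%, 4.42%, 7.91% and 6.56% of all genes passed. Leaving out single arrays gave ratio medians of -0.05 to 0.08 for the 39 genes, -0.02 to 0.12 for replication and -0.15 to 0.00 for mitosis, with 2 to 7 genes passing (7 without cold replicate 2). For Cy3 alone they were 0.04 to 0.33, -0.05 to 0.16 and 0.12 to 0.39, with 2 to 8 passing (8 without cold replicate 3).

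Of BUB1B, CCNE1, CCNE2, MCM2, PCNA, RRM2, SMC1B and SMC4, some turned sign. RRM2 turned to -0.13 with median centring. BUB1B in the ratio turned to 0.050 with processed signals, 0.25 with median centring and 0.52 in the deposited table, MCM2 to -0.20 with median centring, and CCNE2 to 0.19 in the deposited table. PCNA, at 0.00, was 0.040 with processed signals, 0.026 without background subtraction, 0.044 with the median over probes and 0.055 with slide position as a block, and ran from -0.24 without cold replicate 2 to 0.24 without cold replicate 4, but was -0.91 with median centring and -0.41 in the deposited table. In Cy3 alone PCNA was 0.015 with 75th percentile scaling and up to 0.057 with single arrays left out, and CCNE2 was -0.16 with 75th percentile scaling, 0.11 with the replicate block and ran from -0.074 without control replicate 2 to 0.077 without control replicate 5. Of the other genes given per array, CCNB1 in the ratio turned to 0.096 with median centring and 0.36 in the deposited table, and CDC6, CDC25B, PKMYT1, E2F3 and CDKN1B kept their signs under every alternative in which they were measured (CDC6 was not with the Cy5 filter). The causes were not tested.

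The replicate numbers did not pair the arrays, with correlations of same-numbered arrays from -0.30 to 0.54 in the ratio. With the replicate number as a block, the ratio medians were 0.04 for the 39 genes, 0.04 for replication and -0.06 for mitosis, with 3 genes passing (CDC6, RRM2 and SMC1B), and those of Cy3 alone 0.21, 0.05 and 0.32, with 2 passing.

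SMC1B no longer passed in the ratio with the Cy5 filter, at 0.38. RRM2 lost its ratio call with median centring, at -0.13, and in the deposited table, at 0.33. Where CCNE1 lost its call, its change ran from 0.11 with processed signals to 0.68 in the deposited table. SMC4 lost its call with processed signals (-0.77), the methods' t-test (-0.80), array weights (-0.77) and the replicate block (-0.66). The adjusted calls of RRM2 and SMC1B in Cy3 alone were both lost without any filter on dim probes, with the methods' t-test and without control replicates 1, 2 and 4 or cold replicates 3 and 4. Over all genes, 115 passed after adjustment in the ratio with probes above background on all arrays and 5 with slide position as a block.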
